A study of Mus musculus with 6 samples.

Results

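The Gpm6 and reticulon genes encode membrane proteins of neurons and glia. The 6 members were taken by symbol (Gpm6a, Gpm6b, Rtn1, Rtn2, Rtn3 and Rtn4) from the 55421 genes of the deposited tables, and all 6 passed the filter on low counts. They were chosen by family and by measured values, since Gpm6a and Rtn1 were among the genes listed as lowered in the old cortex in the age comparison of these data, so their differences between the ages are given as a description with no test. RNA-seq was performed on the microdissected cerebral cortex of wild-type male C57BL/6J mice, an inbred laboratory strain, with 3 mice of 6 months (young adults; mice 10, 11 and 17) and 3 mice of 24 months (old adults; mice 2, 4 and 5). The only treatment named was the anesthetic isoflurane, given to all mice before cervical dislocation, and all had the same standard diet. Each library was made from 10 ng of total RNA of 1 mouse, and its counts summed to between 29495379 and 36494240. Counts of whole genes do not separate isoforms, and in bulk tissue fewer cells of a type and less RNA per cell cannot be told apart.

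Gpm6a and Gpm6b are a neuronal and a more glial member of 1 family and cross the membrane with both ends in the cytoplasm. Gpm6a promotes the outgrowth of neurites and filopodia. The reticulons share a C-terminal reticulon homology domain whose hydrophobic hairpins bend the membrane of the endoplasmic reticulum (ER) into tubules, alongside the Reep proteins and the atlastin GTPases that fuse the tubules. Rtn4 is also known as Nogo, whose longest form is an inhibitor of axon growth in myelin that acts through the receptor Rtn4r, while Rtn3 and Rtn4 bind Bace1, the beta-secretase that cleaves the amyloid precursor protein.

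The 6 genes lie on 6 chromosomes of GRCm38. Gpm6a (ENSMUSG00000031517.8) spans chr8:54954843-55060871 on the plus strand, with 1 annotated coding transcript and 3215 exonic bases. Gpm6b (ENSMUSG00000031342.17) spans chrX:166238911-166388988 on the plus strand, with 9 coding transcripts. Rtn1 (ENSMUSG00000021087.18) spans chr12:72211752-72409054 on the minus strand, with 3 coding transcripts. It is the longest of the 6 genes, at 197303 bases, and the start of 2 of its transcripts lies inside the gene. Rtn2 (ENSMUSG00000030401.16), the shortest at 13537 bases, spans chr7:19282624-19296160 on the plus strand, with 2 coding transcripts. Rtn3 (ENSMUSG00000024758.15) spans chr19:7425901-7483281 on the minus strand, with 5 coding transcripts. Rtn4 (ENSMUSG00000020458.16) spans chr11:29692947-29744331 on the plus strand, with 6 coding transcripts. The genes also differed in base composition. The longest coding transcripts of Gpm6a and Gpm6b had a GC content of 39.0% and 40.0%, below the lower quartile of 44.9% among genes of at least 10 CPM (counts scaled to a library total of 1000000). Those of Rtn1 and Rtn2, with 55.1% and 61.2%, were above the upper quartile of 54.6%, and those of Rtn3 (45.9%) and Rtn4 (46.0%) lay within the quartiles.

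RefSeq promoters (build GRCm38.p6, 250 bases before to 50 after a transcription start) matched all 6 genes, with 11 starts in all. Gpm6a and Rtn1, the genes of the study's list, are each shown at 1 start, with Rtn2, the gene whose level varied most between mice, and Rtn3, the reticulon whose values were nearest to those of Gpm6a. Capitals mark matches, on either strand, to GGGCGG (the GC box), TATAAA (the TATA box), CCAAT, TGACGTCA (the cAMP response element) or GCATGCGC (part of the NRF1 palindrome); neighbouring matches run together.
Gpm6a, chr8:54954478-54954777, plus strand: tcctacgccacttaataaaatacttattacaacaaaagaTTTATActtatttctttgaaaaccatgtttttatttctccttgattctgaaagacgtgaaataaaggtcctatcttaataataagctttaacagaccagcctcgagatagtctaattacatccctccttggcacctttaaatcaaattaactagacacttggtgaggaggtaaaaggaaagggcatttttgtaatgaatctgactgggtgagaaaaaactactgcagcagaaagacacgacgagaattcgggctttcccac
Rtn1, chr12:72236678-72236977, minus strand: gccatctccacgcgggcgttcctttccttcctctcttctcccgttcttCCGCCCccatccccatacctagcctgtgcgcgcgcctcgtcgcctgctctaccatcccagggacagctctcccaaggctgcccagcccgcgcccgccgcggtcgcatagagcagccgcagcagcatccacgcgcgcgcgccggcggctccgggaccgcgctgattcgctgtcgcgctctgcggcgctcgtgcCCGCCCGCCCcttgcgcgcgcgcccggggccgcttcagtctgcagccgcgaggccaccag
Rtn2, chr7:19282374-19282673, plus strand: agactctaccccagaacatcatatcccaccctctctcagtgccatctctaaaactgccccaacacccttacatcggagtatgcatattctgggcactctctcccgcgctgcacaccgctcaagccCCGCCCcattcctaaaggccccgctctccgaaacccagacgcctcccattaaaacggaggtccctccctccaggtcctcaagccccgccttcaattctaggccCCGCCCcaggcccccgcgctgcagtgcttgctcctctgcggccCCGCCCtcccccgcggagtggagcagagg
Rtn3, chr19:7483242-7483541, minus strand: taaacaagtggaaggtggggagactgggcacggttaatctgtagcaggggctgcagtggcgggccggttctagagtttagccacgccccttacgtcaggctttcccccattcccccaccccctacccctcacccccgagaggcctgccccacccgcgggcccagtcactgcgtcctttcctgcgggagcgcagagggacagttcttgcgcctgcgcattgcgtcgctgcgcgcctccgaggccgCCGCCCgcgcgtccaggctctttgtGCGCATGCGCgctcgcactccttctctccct
The Gpm6a window was the poorest in GC of the 11, with 36.0% GC and 6 CpG dinucleotides, and its only match was a TATAAA on the minus strand. Its start lies 115 bases before the annotated gene. The other Gpm6a start, 175409 bases before the annotated gene, had 47.0% GC and 1 match to GGGCGG. The Rtn1 window, at an internal start 172327 bases into the gene next to which 2 of its 3 coding transcripts begin, had 73.3% GC, 43 CpG dinucleotides and 3 matches to GGGCGG. The Rtn2 window also held 3 matches to GGGCGG at 63.0% GC, and the Rtn3 window held 1 such match and 2 overlapping matches to GCATGCGC at 67.0% GC. The other Rtn1 starts had 45.3% and 46.3% GC, so a window shown does not stand for every start of its gene. For comparison, the median over all 32851 promoters in the table was 52.7% GC and 7 CpG dinucleotides. GGGCGG was present in 35.7% of these promoters, TATAAA in 13.6%, CCAAT in 37.4%, TGACGTCA in 1.79% and GCATGCGC in 2.71%. The Gpm6b window (chrX:166238693-166238992, 65.3% GC) held the only TGACGTCA among the 11 starts. These matches are a description of the letters only.

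Of the 6 genes, 5 were among the abundant transcripts of the cortex and Rtn2 was not. Levels between genes were compared in TPM, which are counts per exonic length scaled to a library sum of 1000000, as the mean over the 6 mice. Gpm6a had a mean of 2297 TPM and ranked 24th of 55421 genes. Gpm6b followed with 963 TPM (rank 91) and Rtn1 with 934 TPM (rank 99), ahead of Rtn3 with 776 TPM (rank 137). Rtn4 reached 371 TPM (rank 382), and Rtn2, a gene of hereditary spastic paraplegia, 24.7 TPM (rank 6118). Together the 6 genes took 0.601%, 0.593% and 0.560% of all TPM in the 6-month-old mice 10, 11 and 17. In the 24-month-old mice 2, 4 and 5 they took 0.452%, 0.496% and 0.516%, each below all 3 young mice.

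The order of the levels was the same in every mouse except between Gpm6b and Rtn1. Neighbours were compared by the difference in log2(TPM + 1) within each mouse, with a two-sided exact permutation test that flips signs. Its smallest possible p with 6 mice is 0.03125. The pairs and their direction were taken from the mean TPM of the same 6 mice, so p shows only whether a difference repeats between mice. Gpm6a exceeded Gpm6b by 1.25 ± 0.092 on the log2 scale (SD, n = 6; higher in 6 of 6 mice; exact permutation p = 0.03125, adjusted over the 5 pairs 0.0391). Rtn1 exceeded Rtn3 by 0.27 ± 0.11, Rtn3 exceeded Rtn4 by 1.06 ± 0.13 and Rtn4 exceeded Rtn2 by 4.06 ± 0.95, each in 6 of 6 mice with the same exact p. Gpm6b and Rtn1 did not differ beyond their spread. Their difference was 0.05 ± 0.16, with Gpm6b higher in 3 of 6 mice (exact permutation p = 0.531), and it ranged from -0.11 to 0.30 between mice. Per kilobase of the longest coding transcript in place of the exonic length, Rtn1 was above Gpm6b, and the difference became -0.18 (exact permutation p = 0.0938).

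**Figure D1:**
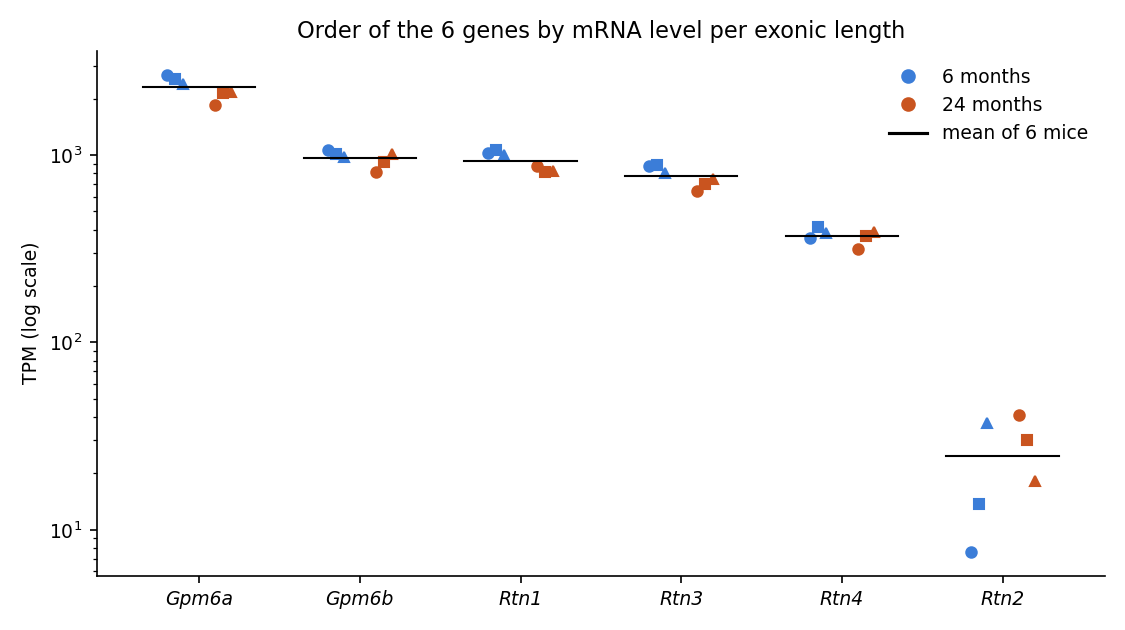
TPM of each gene (log axis) in the 3 mice of 6 months (blue) and the 3 of 24 months (orange), with the mean of the 6 mice as a line. The genes run from Gpm6a at a mean of 2297 TPM to Rtn2 at 24.7 TPM, and the points of Gpm6b and Rtn1 overlap.

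Between the ages, 5 of the 6 genes were lower in every 24-month-old mouse than in every 6-month-old mouse, and Rtn2 was not. The same held for 16.2% of all 32905 genes tested, while 20.0% were higher in every old mouse, and for 55.8% of the 2240 genes above 100 CPM, to which the 5 lower genes belong. The values below are CPM scaled by the trimmed mean of M-values (TMM), in the order of mice 10, 11 and 17 for 6 months and mice 2, 4 and 5 for 24 months.

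Gpm6a had 2470, 2321 and 2183 CPM in the young mice and 1554, 1802 and 1837 CPM in the old mice. The lowest young mouse was thus well above the highest old mouse, and the mean went from 2324 ± 144 to 1731 ± 154 (SD, n = 3 each), a change of -25.5%. Gpm6b had 1706, 1594 and 1551 CPM at 6 months and 1188, 1345 and 1484 CPM at 24 months. Its old mouse 5 came close to the young mouse 17, and the mean went from 1617 ± 80.2 to 1339 ± 148, a change of -17.2%. The fitted log2 fold change was -0.43 ± 0.096 (SE) for Gpm6a and -0.27 ± 0.10 for Gpm6b.

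Of the reticulons, Rtn1, a neuronal ER protein, had 1462, 1496 and 1420 CPM in the young and 1142, 1063 and 1074 CPM in the old mice. Before any adjustment for GC content, it was the steadiest of the 6 genes, with a within-age SD of 0.048 on the log2 scale. The median was 0.13 over the 10026 genes of at least 10 CPM, 95.4% of which varied as much as Rtn1 or more. The mean of Rtn1 went from 1459 ± 38 to 1093 ± 43.1 CPM, with a log2 fold change of -0.42 ± 0.081. Rtn3, which binds Bace1, had 1252, 1251 and 1149 CPM at 6 months and 847, 929 and 987 CPM at 24 months. Its groups were apart by more than their spread, at 1217 ± 59.4 and 921 ± 70.6 CPM (log2 fold change -0.40 ± 0.091). Rtn4 had 717, 812 and 765 CPM in the young and 576, 676 and 714 CPM in the old mice. Its groups nearly touched, between young mouse 10 and old mouse 5, and the means were 765 ± 47.1 and 655 ± 71.4 CPM (log2 fold change -0.22 ± 0.10).

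Rtn2 stood apart from the other genes. Its counts were 309, 614 and 1586 in the young and 1609, 1251 and 744 in the old mice, so that they were far above counting noise. In CPM it had 10.0, 17.8 and 48.4 at 6 months and 49.6, 36.2 and 21.9 at 24 months. Young mouse 17 was among the highest of the 6 libraries and the ages overlapped. The means were 25.4 ± 20.3 and 35.9 ± 13.9 CPM, with a log2 fold change of 0.50 ± 0.48. Without young mouse 17 this value was 1.37, and without young mouse 10 it was 0.12. The within-age SD of Rtn2 was 0.91 on the log2 scale, and 43 of 10026 genes (0.429%), Rtn2 included, varied as much.

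**Figure D2:**
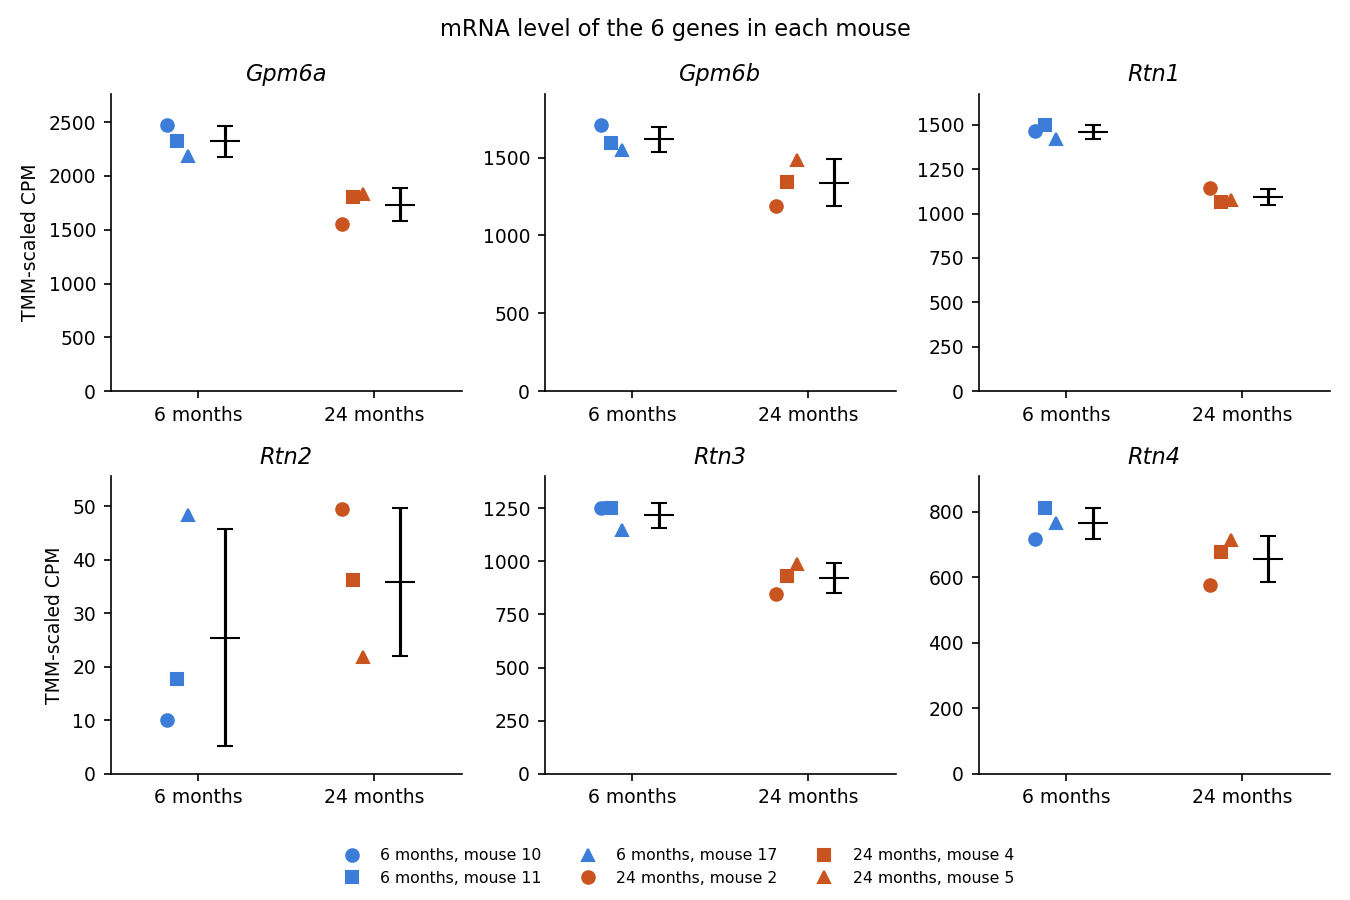
TMM-scaled CPM of each of the 6 genes in each mouse, with the mean and SD of the 3 mice of each age in black; every axis starts at 0. The old mice lie below the young mice for all genes except Rtn2, whose 6 values run from 10.0 to 49.6 CPM with the ages mixed.

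The scaling of the libraries set the size of the differences and the count of genes without overlap. The TMM factors were 0.921 to 0.946 in the young and 1.04 to 1.10 in the old libraries, and log2 fold changes had a median of 0.15 for all tested genes but -0.14 for genes above 1 CPM and -0.23 for genes above 100 CPM. With library totals alone these medians became 0.33, 0.05 and -0.04, and 3 of the 6 genes (Gpm6a, Rtn1 and Rtn3) were lower without overlap, as were 4.75% of all genes and 16.8% of those above 100 CPM. Set against the median of the genes above 100 CPM, 3 genes were lower and 2 close to it, and Rtn2 was 0.73 above. Gpm6a was 0.19 below that median, Rtn1 0.18 below and Rtn3 0.17 below. Gpm6b differed from it by -0.04 and Rtn4 by 0.01. A scaling or filter moves the members and this median nearly alike, and the likelihood ratio test keeps the fold changes. Apart from the GC offsets, these settings could thus hardly change the relative value. Over 7 other scalings, filters and tests, it lay between -0.20 and -0.19 for Gpm6a, -0.22 and -0.18 for Rtn1, and -0.17 and -0.13 for Rtn3. The relative value lay between -0.04 and -0.02 for Gpm6b, and 0.01 and 0.05 for Rtn4. Leaving out 1 mouse moved it more, from -0.22 to -0.14 for Gpm6a, -0.24 to -0.15 for Rtn1 and -0.20 to -0.13 for Rtn3. The sign was not kept for Gpm6b, from -0.10 (without old mouse 5) to 0.02 (without old mouse 2), or for Rtn4, from -0.05 (without young mouse 10) to 0.07 (without old mouse 2). Of the 2240 genes above 100 CPM, 10.4% had a lower fold change than Gpm6a, 11.5% than Rtn1 and 13.7% than Rtn3, against 39.8% for Gpm6b and 53.0% for Rtn4.

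**Figure D3:**
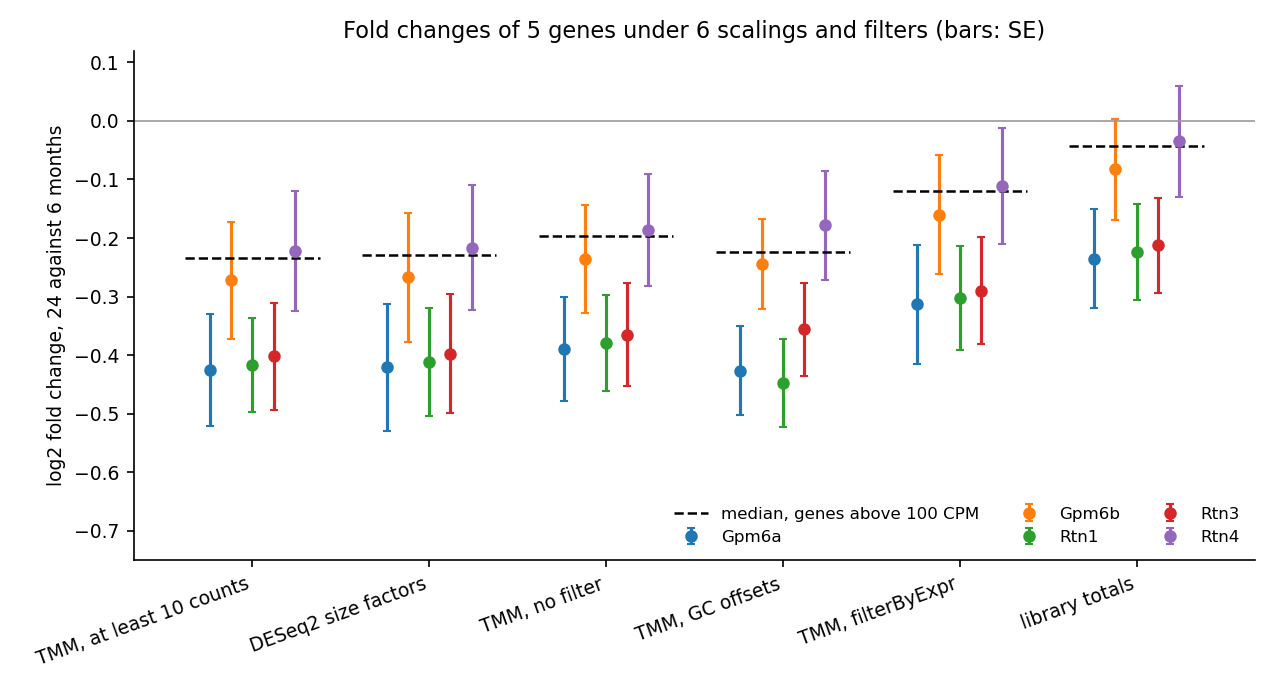
Log2 fold change (24 against 6 months, bars: SE) of 5 genes under 6 scalings or filters, with the median of the genes above 100 CPM as a dashed line; Rtn2, at 0.38 to 0.69, is outside the axis. The 5 values and the dashed line move together, with Gpm6a, Rtn1 and Rtn3 below the line in each setting and Gpm6b and Rtn4 close to it.

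Ratios within 1 library do not depend on its scaling. The log2 ratio of Gpm6a to Gpm6b, in TPM, was 1.33, 1.34 and 1.29 in the young and 1.19, 1.22 and 1.11 in the old mice. Gpm6a was thus lower relative to Gpm6b in each old mouse, with a difference in the mean log2 ratio of -0.15. The cause of this difference was not tested. The log2 ratio of Rtn1 to Rtn3 was 0.24, 0.27 and 0.32 at 6 months and 0.44, 0.21 and 0.13 at 24 months, with overlapping ages. These ratios were not adjusted for GC content, which was 55.1% for Rtn1 and 45.9% for Rtn3. The log2 ratio of Rtn4 to Rtn3 was -1.28, -1.10 and -1.06 in the young and -1.03, -0.94 and -0.95 in the old mice. Rtn4 was thus higher relative to Rtn3 in each old mouse, by 0.18 in the mean. The log2 ratio of Rtn2 to Rtn3 ran from -6.83 in young mouse 10 to -3.96 in old mouse 2, with the ages overlapping.

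**Figure D4:**
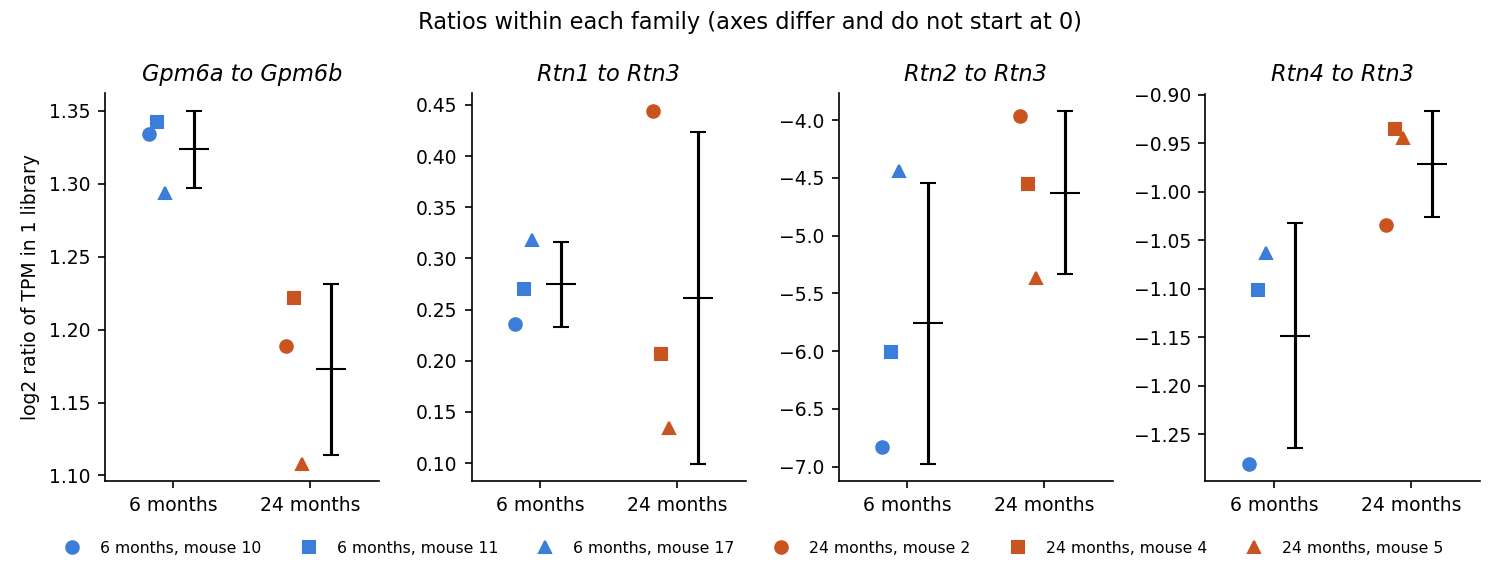
Log2 ratio of TPM between 2 genes of a family in each library, with the mean and SD of each age in black; the axes differ between panels. With no adjustment for GC content, the ages do not overlap for Gpm6a to Gpm6b and for Rtn4 to Rtn3, and overlap for Rtn1 to Rtn3 and Rtn2 to Rtn3.

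Likeness of profiles across the 6 mice was measured as the root mean square difference between log2 CPM profiles, each centred on its mean over the 6 libraries. The difference between the ages, by which Gpm6a and Rtn1 were chosen, is thus part of each profile. Likeness does not stand for shared variation between mice of 1 age. The closest pair was Gpm6a and Rtn3 (0.037), followed by Gpm6b and Rtn3 (0.076) and Gpm6a and Gpm6b (0.084), and Rtn1 and Rtn3 were at 0.097, whereas Rtn2 was between 0.91 and 1.00 from every other member. Among all genes of at least 10 CPM, the 5 nearest to Gpm6a were Tm9sf2 (0.014), Fitm2 (0.016), Hnrnpll (0.023), Fam126b (0.023) and Rnmt (0.023). The 5 nearest to Rtn1 were Klhl18 (0.017), Cyp7b1 (0.025), Cnih3 (0.027), Adpgk (0.030) and Med26 (0.031). Rtn2 was examined in the same way after its values were seen. Its nearest gene was Sptbn4 (0.027), a spectrin of the axon initial segment, with 9.63, 16.4 and 46.0 CPM in the young and 45.4, 33.1 and 20.4 CPM in the old mice. The order of the libraries is the same as for Rtn2 apart from a change of place between young mouse 17 and old mouse 2. The next 4 genes were Abhd17a, Tle1, Unc119 and Plekhn1, and the transcripts of these 5 genes had a GC content of 53.0% to 64.6%.

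The libraries differed in how they represented transcripts by GC content. In the fifth of genes with the lowest GC content (up to 43.6%), to which Gpm6a and Gpm6b belong, the median centred log2 CPM was 0.15, 0.08 and 0.07 in the young and -0.22, -0.08 and 0.05 in the old libraries. In the fifth with the highest (from 55.6%), to which Rtn2 belongs, the same medians were 0.01, 0.04 and 0.08 in the young and 0.01, -0.02 and -0.07 in the old libraries. With a GC trend per library as an offset in the fit, Gpm6b had 1567, 1591 and 1578 CPM in the young and 1382, 1358 and 1342 CPM in the old mice. Its spread within an age was then 0.017 on the log2 scale, down from 0.12, and the gap between the nearest young and old mice widened while the difference between the ages did not. The fold changes under the offset were -0.43 for Gpm6a, -0.24 for Gpm6b, -0.45 for Rtn1, 0.38 for Rtn2, -0.36 for Rtn3 and -0.18 for Rtn4. Rtn1 then had 1533, 1511 and 1429 CPM in the young and 1031, 1038 and 1145 CPM in the old mice. Its spread within an age was 0.071, up from 0.048, so that Gpm6b and Rtn3 (0.045) varied less than Rtn1. Rtn3 had 1186, 1210 and 1139 CPM in the young and 917, 965 and 971 CPM in the old mice. Under the offset, Rtn1 was thus lower relative to Rtn3 in each old mouse than in any young mouse. Rtn2 still varied widely, with 12.0, 19.4 and 47.6 CPM in the young and 39.5, 33.1 and 23.0 CPM in the old mice, and an SD of 0.77 within an age. Rtn4 overlapped between the ages under the offset, and 4 of the 6 genes were lower without overlap, as were 15.3% of all genes and 51.7% of those above 100 CPM.

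Markers of the cell types of the cortex were checked beside the members. The summed level of 11 neuronal markers was 11682 to 13299 CPM in the young and 8822 to 11232 CPM in the old mice; 6 of the 11 were lower in every old mouse, where 55.8% of all genes above 100 CPM were, and the median log2 fold change of the list was -0.28. The 7 astrocyte markers summed to 3188 to 3473 CPM and 3165 to 3619 CPM, and the 7 oligodendrocyte markers to 1597 to 2475 CPM and 862 to 2697 CPM, both with overlapping ages. Of the astrocyte markers 2 of 7 were lower in every old mouse, of the oligodendrocyte markers 0, and of the 6 microglial markers 1 was lower and 1 higher. The markers of microglia, endothelial cells, oligodendrocyte precursors, choroid plexus, meninges, red blood cells and striatum also overlapped in their sums between the ages, and no marker of any list was at 0. The fold changes of Gpm6a, Rtn1 and Rtn3 were below the median of the neuronal list, that of Gpm6b was close to it and that of Rtn4 above it. The part of the neuronal share of the RNA in the members' values was not tested.

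Genes that work with the family were taken from a list of 27, all of which were tested with the edgeR quasi-likelihood test and Benjamini-Hochberg adjustment over all genes. At 10% FDR, 6 of the 27 fell with age and 0 rose, where 8.33% of all genes tested fell and 10.0% rose. At an unadjusted p under 0.05, 8 of the 27 were lower and 0 higher, where 13.1% and 17.6% of all genes were. Only 1 of the 27 was below 1 CPM. Among all genes above 1 CPM, 17.3% fell and 2.43% rose at 10% FDR. At the unadjusted p, 26.9% of these genes were lower and 4.23% higher, so the 29.6% of the 27 that were lower is near their share. At 1% FDR, the study's threshold, 0 genes of any kind passed in either direction, while 5780 genes were higher and 4316 lower at an unadjusted p under 0.05. The likelihood ratio test of edgeR called 1451 higher and 252 lower at 1% FDR, and DESeq2 112 and 115. The quasi-likelihood test without a filter called 34 higher and 8 lower. The study, with edgeR and a filter of its own, reported differentially expressed genes at that threshold. The median log2 fold change of the 27 genes was -0.11, beside 0.15 over all genes tested and -0.23 over those above 100 CPM, among which 36.7% fell at 10% FDR. Only 9 of the 27 were above 100 CPM.

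Of the 13 genes that shape tubular ER, 5 fell at 10% FDR (38.5%). Among all genes above 1 CPM, to which all 13 belong, 17.3% fell. Among those above 100 CPM, to which 6 of the 13 belong, 36.7% fell. Atl1, an atlastin of neurons, had 247, 224 and 216 CPM in the young and 157, 164 and 179 CPM in the old mice. Its ages were well apart, with a log2 fold change of -0.46 ± 0.094 (edgeR adjusted p = 0.0518). Reep1, like Atl1 a gene of hereditary spastic paraplegia, went from 248 ± 26.8 to 180 ± 21.0 CPM (log2 fold change -0.46 ± 0.12, edgeR adjusted p = 0.0582). Reep5, the most abundant Reep, had 504, 534 and 485 CPM at 6 months and 375, 428 and 421 CPM at 24 months. It fell in every old mouse relative to the young mice (log2 fold change -0.32 ± 0.090, edgeR adjusted p = 0.0664), as did Reep2 (-0.29 ± 0.087, adjusted p = 0.0722). Lnpk, which stabilizes the junctions of tubules, had a log2 fold change of -0.52 ± 0.18 (edgeR adjusted p = 0.0964). Its ages nearly touched, at 91.2 CPM in young mouse 11 and 91.0 CPM in old mouse 5. With library totals, filterByExpr or the DESeq2 Wald test, Lnpk did not pass (adjusted p = 0.212, 0.224 and 0.106), nor did Reep2 and Reep5. Reep1 did not pass with library totals or filterByExpr. Reep2 was also lost without a filter (0.146) and with the likelihood ratio test (0.112). Of the 8 others, 7 had negative and 1 a positive fitted value, from -0.31 to 0.09, and none passed. With library totals Atl1 alone of the 27 remained lower (edgeR adjusted p = 0.0887), while Rrbp1 was higher (0.35, adjusted p = 0.0755), and leaving out a mouse moved the count of lower genes among the 27 between 0 (without young mouse 10 or 11, or old mouse 2 or 4), 2 (without young mouse 17) and 8 (without old mouse 5).

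The receptor side of Rtn4 did not pass the test in either direction. Of 10 genes of the Nogo receptor complex, its relatives and its other myelin ligands, 0 passed 10% FDR, and their median log2 fold change was -0.04. Rtn4r, the Nogo receptor, had 11.6, 13.4 and 29.5 CPM in the young and 26.6, 20.3 and 17.9 CPM in the old mice (log2 fold change 0.25 ± 0.31, edgeR adjusted p = 0.609). Without young mouse 17, Rtn4r was higher in the old mice (0.79, edgeR adjusted p = 0.0921). Its co-receptor Lingo1 had 242, 276 and 428 CPM in the young and 350, 257 and 233 CPM in the old mice (log2 fold change -0.17 ± 0.21, edgeR adjusted p = 0.608). In both receptors, as in Rtn2, young mouse 17 was the highest or next to the highest library, and young mouse 10 was the lowest or next to the lowest. Of the relatives of Rtn4r, the same held for Rtn4rl2 but not for Rtn4rl1. Rtn4rl1 was highest in young mouse 10 (57.3 CPM) and lowest in young mouse 11 (15.1 CPM). Omg, a myelin ligand of the same receptor, had 270 ± 35 and 213 ± 29.4 CPM (log2 fold change -0.34 ± 0.13, edgeR adjusted p = 0.112), and it passed without old mouse 5 (-0.42, adjusted p = 0.0692). Bace1, the partner of Rtn3 and Rtn4, fell from 76.6 ± 3.25 to 63.1 ± 5.01 CPM (log2 fold change -0.28 ± 0.096, edgeR adjusted p = 0.0928), and Rtn4ip1 did not pass. The call for Bace1 was lost in each of the 7 other scalings, filters and tests (adjusted p of 0.106 to 0.534). Ckap4 and Rrbp1, which are proteins of sheet ER, had positive values of 0.21 and 0.15 and did not pass.

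**Figure D5:**
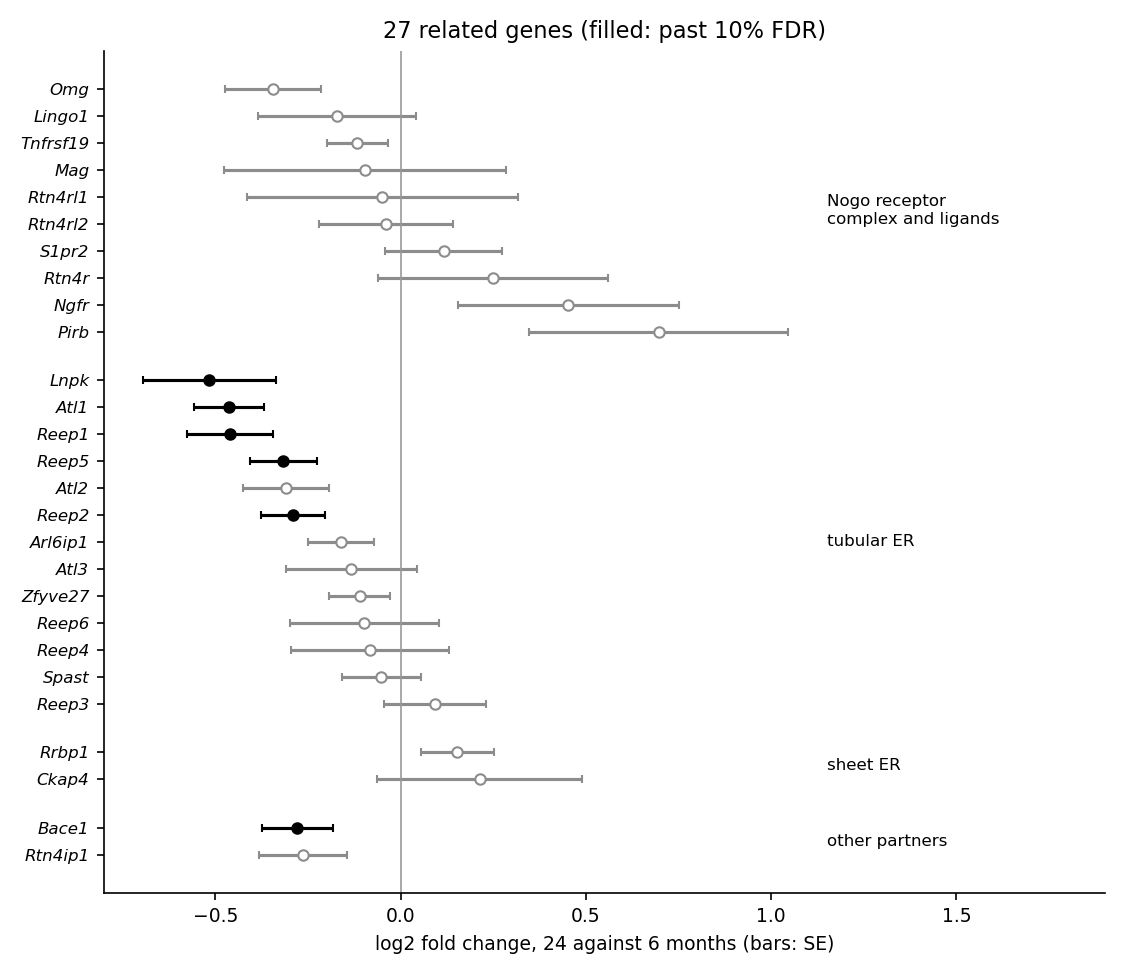
Log2 fold change (24 against 6 months, bars: SE) of the 27 related genes by list, filled where past 10% FDR in the edgeR quasi-likelihood test. The 6 filled points are Lnpk, Atl1, Reep1, Reep5, Reep2 and Bace1, all between -0.52 and -0.28.

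Genes that overlap a member on the genome were read beside it. The span of Gpm6a overlaps 5 unconfirmed transcripts on the same strand with 0 shared exonic bases, Gm45263, Gm45265, Gm45264, Gm45262 and A230085B16Rik. Each had 3 to 223 counts in a library beside the 50441 to 80129 counts of Gpm6a. Their fitted log2 fold changes were all positive, at 0.35, 0.64, 0.24, 0.64 and 0.56, while that of Gpm6a was negative. The median over all genes tested was 0.15. None passed 10% FDR, and the nearest was Gm45265 (2.87 ± 0.53 and 4.48 ± 1.21 CPM, edgeR adjusted p = 0.104). Gm45265 passed with library totals (adjusted p = 0.0698), DESeq2 size factors (0.0963), no filter (0.0947) and the likelihood ratio test (0.0773). It did not pass with filterByExpr (0.119), the DESeq2 Wald test (0.101) or GC offsets (0.216, log2 fold change 0.37). With any 1 mouse left out it did not pass either (edgeR adjusted p of 0.109 to 0.262). Eml6, on the strand opposite to Rtn4, shares 1284 exonic bases with it, and reads from the shared bases cannot be assigned to a strand in these libraries. Eml6 had 17.9 ± 1.18 and 13.8 ± 3.47 CPM (log2 fold change -0.37 ± 0.17, edgeR adjusted p = 0.168, and 0.0352 without old mouse 5), at 359 to 661 counts in a library beside 18682 to 28023 for Rtn4. The gene listed as Zfta shares 4 exonic bases with Rtn3 on the opposite strand and had a log2 fold change of 0.15 ± 0.12 (edgeR adjusted p = 0.409).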

How the data were processed

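Per the labels and the study's methods, total RNA of 1 cortex per library was made into cDNA libraries with a low-input kit and sequenced as 75-base single-end reads, which the authors trimmed, mapped to GRCm38 with STAR 2.7.3a and counted on exons with featureCounts (Subread 2.0.0), multi-mapping reads included. The authors deposited, for each mouse, whole-number counts (100% of values) and TPM values computed from these counts and the exonic length of each of 55421 genes.

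Counts were fitted with edgeR 4.0.16 (R 4.3.3): TMM scaling, a filter of at least 10 counts in all, and a quasi-likelihood test of age alone, with Benjamini-Hochberg FDR over all genes tested. A threshold of 10% was used, since 0 genes passed the study's 1%. The SE of a log2 fold change is its size divided by the square root of the F statistic. The script was tested on simulated data. The members and lists were chosen with earlier results of these data known. Alternatives were library totals, DESeq2 1.42.0 (its size factors in edgeR, and its Wald test), 2 filters, the likelihood ratio test, each mouse left out, and, chosen after seeing the data, GC offsets. DESeq2 left 5745 genes without an adjusted p. TPM of members were compared by exact sign-flip permutation (pseudocount 1), and likeness used log2 CPM with a prior count of 2. Named were all members, related genes past 10% FDR, Rtn4r, Lingo1, Omg, Atl1, Reep5 and Bace1, the 5 genes most like Gpm6a and Rtn1 among those of at least 10 CPM, and genes overlapping a member; other names were chosen after their values were seen. Coordinates and GC content are from GENCODE vM21 (GRCm38), whose exonic lengths equal those implied by the deposited TPM for all 6 members; the study's annotation release may differ. Libraries of an age differed beyond sampling noise and were counted as 3 mice each. Proteins and strand were not analysed here, and 1 related gene is not reported here.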

Additional observations from a re-analysis of the deposited data

How the results depend on the processing

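No paired analysis was possible because the ages share no mouse numbers. With library totals the log2 fold changes were -0.24 (Gpm6a), -0.083 (Gpm6b), -0.22 (Rtn1), -0.21 (Rtn3) and -0.035 (Rtn4); with filterByExpr those of Rtn1 and Rtn3 were -0.30 and -0.29. Each kept its sign in all 13 alternatives. Leaving out 1 mouse gave -0.47 to -0.34 for Gpm6a, -0.35 to -0.18 for Gpm6b, -0.44 to -0.36 for Rtn1, 0.12 to 1.37 for Rtn2, -0.45 to -0.34 for Rtn3 and -0.28 to -0.13 for Rtn4. Members lower without overlap numbered 3 with library totals (4.75% of all genes, 16.8% of those above 100 CPM) or filterByExpr (13.5% and 31.4%) and 3 to 5 with 1 mouse left out, with 3 without young mouse 11 (14.8% and 44.7%) or old mouse 4 (15% and 43.8%); members higher numbered 0 to 1, Rtn2 being higher without young mouse 17. Related genes past 10% FDR numbered 1 lower and 1 higher with library totals, 1 lower with filterByExpr, 2 lower with DESeq2, 0 lower at 1% FDR, and 0 to 8 lower and 0 to 1 higher with 1 mouse left out. All genes past 10% FDR (3299 higher, 2742 lower) numbered 1108 higher and 430 lower with filterByExpr, 5302 higher with the likelihood ratio test, 1340 and 1708 with DESeq2, 4113 higher and 323 lower with library totals, 1377 lower without a filter, 0 and 0 at 1% FDR, and 0 to 4364 higher and 0 to 3633 lower with 1 mouse left out; both were 0 without young mouse 10 or old mouse 4, 1 and 0 without young mouse 11, 72 and 104 without old mouse 2, and 1224 and 1252 without young mouse 17. The difference between Gpm6b and Rtn1 reversed to -0.18 per longest transcript and to -0.022 in the young mice alone, and ran from -0.0017 to 0.080 with 1 mouse left out. The 4 other pairs kept their order in each setting. With 1 mouse left out they ran from 1.23 to 1.28, 0.23 to 0.29, 1.01 to 1.08 and 3.79 to 4.29. Per longest transcript all 4 lay outside these ranges, with Rtn1 minus Rtn3 above its range and the others below. In mice of 1 age Rtn1 minus Rtn3 stayed within its range. The others lay above theirs in the young mice alone and below in the old mice alone. With 5 mice or 1 age the smallest possible p is 0.0625 or 0.25. A filter at 1 TPM left all 6 members. The age difference of the Rtn1 to Rtn3 ratio ran from -0.10 to 0.050; those of Gpm6a to Gpm6b (-0.18 to -0.12), Rtn2 to Rtn3 (0.59 to 1.79) and Rtn4 to Rtn3 (0.11 to 0.22) kept their sign. Causes of these shifts were not tested. With 3 mice per age, all p-values rest on few mice. Those of edgeR also draw on the spread of other genes, and the exact p-values use differences within mice of both ages. The lowest count of a member was 309, and the part of depth was not tested.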
